A study of Mus musculus with 12 samples.

Results

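Noncompaction of the left ventricle is a cardiomyopathy in which the wall keeps deep trabeculae over a thin compact layer. Besides genes of the sarcomere, a small set of genes with unlike tasks has been tied to it in people or in mice. They act in transcription (Prdm16), Notch ligand signalling (Mib1), the nuclear lamina (Lmna), the membrane scaffold of the muscle cell (Dtna), mitochondrial lipid remodelling (Taz), RNA splicing (Rbm20), calcium release and receptor signalling (Fkbp1a) and cell adhesion (Vcl). These 8 genes were chosen for that link. They were found by the gene name printed beside each probe in the scanner output, which gave 13 probes, and all 8 genes are among the 18021 that passed the filter on dim probes, out of 34844 gene names on the array.

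RNA was taken from left ventricles of 12 mice aged 6 months, 4 in each of 3 groups, and each ventricle was hybridised to 1 one-colour array. All mice carried a floxed Nkx2-5 gene (the Floxed-Nkx2-5-Δneo allele). In the mutants a Cx40-creERT2 driver, active in embryonic trabecular myocardium, removed Nkx2-5, a homeodomain factor of heart development, after tamoxifen was given to the pregnant dam. Deletion at E10.5 and E11.5, while trabeculae form, gave the group Nkx2-5ΔTrbE10 (TrbE10, labelled Nkx2-5Δtrab), and deletion at E13.5 and E14.5, while they compact, gave Nkx2-5ΔTrbE14 (TrbE14, labelled Nkx2-5Δcomp). Controls lacked the Cre allele according to the study's methods and are labelled as not injected, so tamoxifen exposure and Cre are not matched between mutants and controls if the label holds. The dissected tissue was the free wall with the apex and no septum, so cells in which the driver was never active are part of every sample.

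The targeted gene was measured first. Nkx2-5 lay between 11.89 and 12.23 in control, between 11.21 and 11.67 in TrbE10 and between 11.12 and 11.63 in TrbE14 hearts, on the log2 signal scale used throughout. Every mutant heart was below every control heart, by a mean of -0.66 in TrbE10 (SE 0.14, limma adjusted p = 0.0459) and -0.59 in TrbE14 (SE 0.14, limma adjusted p = 0.106). All 7 ventricular cardiomyocyte markers were measured and 0 of them were called in any comparison, with a summed linear signal of 1100000 to 1180000 in control, 1180000 to 1240000 in TrbE10 and 1090000 to 1170000 in TrbE14. Of the macrophage markers 3 were called higher in TrbE10 and 1 in TrbE14, and of the fibroblast markers 1 in each. The sum over 6 of 7 macrophage markers (Adgre1 did not pass the filter) was 6480 to 7930 in control, 12800 to 14500 in TrbE10 and 11000 to 12100 in TrbE14, and that over 8 fibroblast markers was 72100 to 80400, 90700 to 108000 and 94700 to 113000. The part of these shifts in the values below was not tested, and in whole ventricle fewer cells of a type and less RNA per cell cannot be told apart. All TrbE10 arrays lay on 1 slide and all other arrays on another, so slide and TrbE10 cannot be told apart, while TrbE14 and control shared a slide. By the Y-linked gene Ddx3y, 1 of 4 control, 2 of 4 TrbE10 and 3 of 4 TrbE14 mice were male.

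Each value depends on which stretch of a transcript its 60-base probe reads, so 4 probes are shown, as printed in the deposited scanner output, with their positions in mm9. The Lmna probe lies at chr3:88287262-88287321 on the minus strand. The Rbm20 probe maps to 6259 bases at chr19:53909212-53915470 on the plus strand, and the second Vcl probe to 462 bases at chr14:21848574-21849035 on the plus strand, so both join sequence that is apart in the genome and read spliced RNA. The brightest Fkbp1a probe, at chr2:151368420-151368479 on the plus strand, holds the start codon, and capitals mark the 36 bases from that codon on.
Lmna: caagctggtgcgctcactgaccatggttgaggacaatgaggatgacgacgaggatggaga
Rbm20: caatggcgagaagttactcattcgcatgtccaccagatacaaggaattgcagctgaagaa
Fkbp1a: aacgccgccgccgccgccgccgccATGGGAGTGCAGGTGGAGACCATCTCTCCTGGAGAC
Vcl, second probe: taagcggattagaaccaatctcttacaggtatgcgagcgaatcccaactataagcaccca
The Prdm16 probe lies at chr4:153690254-153690313 and the Taz probe at chrX:71535428-71535487. Taz here is tafazzin, matched by its RefSeq accession to the X-linked gene, and not the transcriptional coactivator of the same protein name. No mm9 gene annotation was used here, so exons and UTRs are not assigned.

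Of the 13 probes, 12 were well above background on all 12 arrays. The exception was the second Dtna probe, which was above background on 0 arrays and is not used below. Where a gene had several probes past the filter, the brightest stands for the gene and the others are given beside it.

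The question put to these genes was whether the deletion of Nkx2-5, at either stage, left their RNA at another level in the adult ventricle. None of the 8 was called at an adjusted p under 0.05 in TrbE10 or TrbE14 against control, and none in TrbE10 against TrbE14. Across the 18021 genes the share called was 2.15% in TrbE10, 0.76% in TrbE14 and 0% between the mutants. At an unadjusted p under 0.05, 1 of 8 passed in each mutant against control (Mib1 in both), beside 16.8% and 13.9% of all genes, and 0 of 8 between the mutants, beside 5.96%. By SAM, the test named in the study's methods, 0 of 8 were called in any comparison as well. The control arrays are the same in both mutant comparisons. The member values by heart, the differences and their intervals are given by role below.

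**Figure D1:**
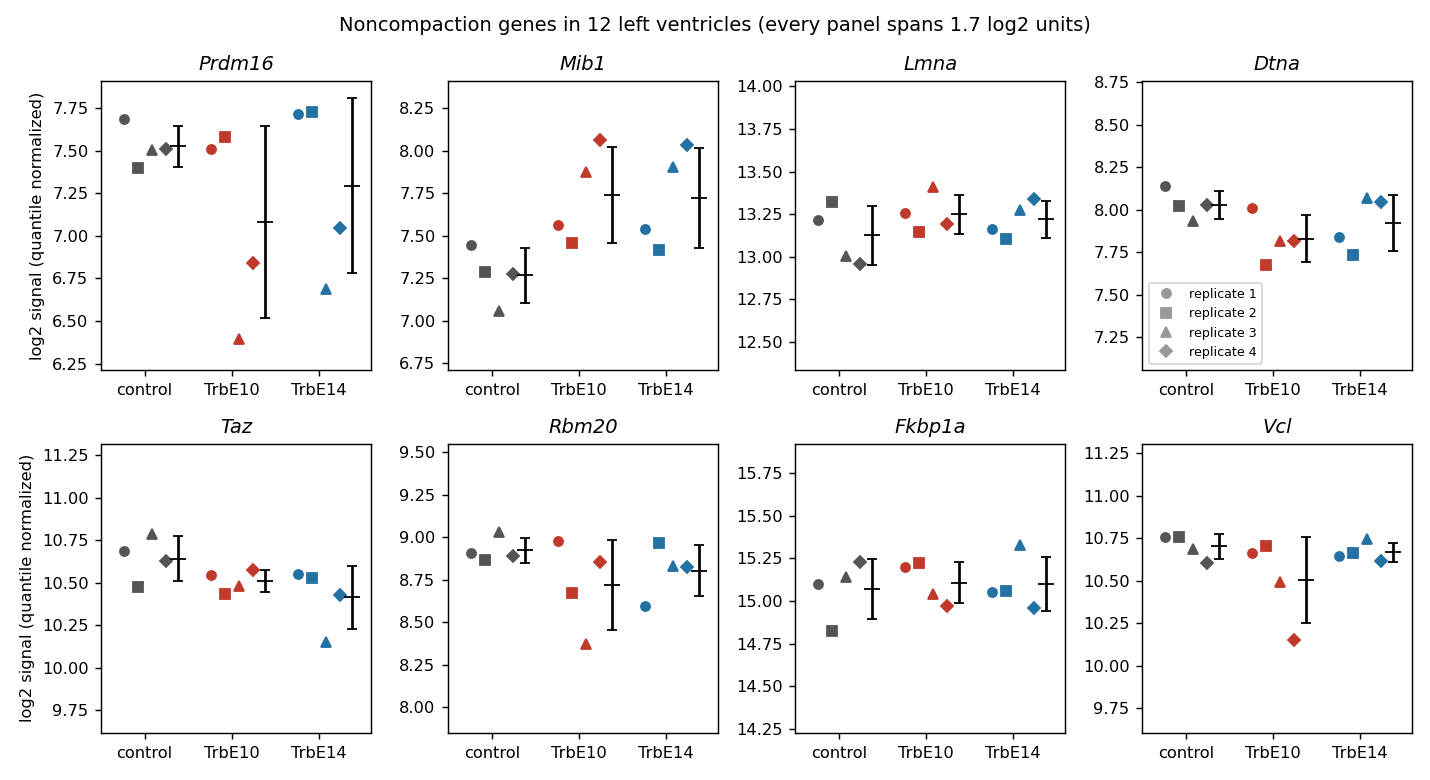
Quantile-normalized log2 signal (vertical axis) of the 8 noncompaction genes in each of 4 control, 4 TrbE10 and 4 TrbE14 hearts, with the group mean and SD in black beside the points and marker shapes for replicate numbers. Prdm16 and Mib1 spread most within the mutant groups, and only the Mib1 panel has a mutant group (TrbE10) wholly above the control hearts, by a narrow margin (7.46 against 7.45).

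Prdm16, a zinc-finger transcriptional regulator whose loss in people accompanies noncompaction, gave signals of 7.69, 7.40, 7.50 and 7.51 in the control hearts. In TrbE10 they were 7.51, 7.58, 6.39 and 6.84, and in TrbE14 they were 7.72, 7.73, 6.69 and 7.05. Replicates 3 and 4 of each mutant group lay below every control heart, and replicates 1 and 2 lay among or above the controls. The mean difference from control was -0.45 in TrbE10 (SE 0.29, 95% interval -1.08 to 0.19, limma adjusted p = 0.479) and -0.23 in TrbE14 (SE 0.29, interval -0.87 to 0.40, limma adjusted p = 0.737). These are the widest intervals among the 8 genes, and as a fold of control that of TrbE10 ran from 0.473 to 1.14. Without replicate 3 of the mutant group the difference was -0.22 in TrbE10 and -0.03 in TrbE14.

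The spread itself was unequal for Prdm16. Its SD was 0.12 in control, 0.57 in TrbE10 and 0.51 in TrbE14, a ratio to control of 4.73 and 4.30 (n = 4 each). Of 18015 genes with a complete set of values, 290 (1.61%) had both ratios at least as high. No test of the spread was made, and this comparison was chosen after the values had been seen.

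Mib1 encodes a ubiquitin ligase that drives endocytosis of Notch ligands in the signal-sending cell. Its signal was 7.45, 7.29, 7.06 and 7.28 in control, 7.57, 7.46, 7.88 and 8.06 in TrbE10 and 7.54, 7.41, 7.90 and 8.03 in TrbE14. All 4 TrbE10 hearts were above all 4 controls, and 3 of 4 TrbE14 hearts were. Mib1 in TrbE10 was the 1 case without overlap among the 8 genes, while 10.6% of all genes did not overlap in that comparison (4.95% with TrbE10 higher), 10.1% did not between TrbE14 and control and 3.37% did not between the mutants. The difference was 0.47 in TrbE10 (SE 0.17, 95% interval 0.10 to 0.85, limma adjusted p = 0.201) and 0.45 in TrbE14 (SE 0.17, interval 0.08 to 0.83, limma adjusted p = 0.285). As folds these are 1.39 and 1.37. An exact two-sided permutation test of the 4 against 4 hearts gave p = 0.0286 in TrbE10, the smallest that 70 label orders allow, and p = 0.0571 in TrbE14. Mib1 did not pass the correction over all genes in either comparison. Between the mutants it differed by 0.02 (interval -0.35 to 0.39, limma adjusted p = 0.995). Male hearts were 0.16 higher than female hearts within groups, and with sex in the model the difference was 0.43 in TrbE10 and 0.37 in TrbE14.

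**Figure D2:**
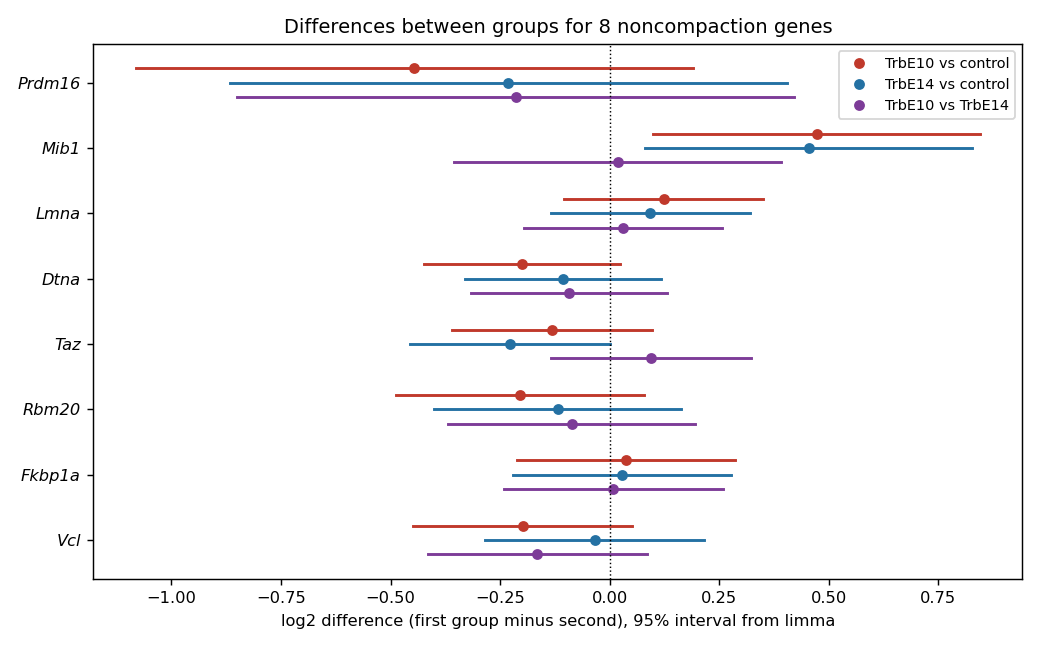
Log2 difference between groups (horizontal axis, first group minus second) for each of the 8 genes, with its 95% interval from the limma fit over 12 arrays, in red for TrbE10 against control, blue for TrbE14 against control and purple for TrbE10 against TrbE14. Both mutant intervals of Mib1 lie above 0 before any correction for the number of genes, and every other interval spans 0.

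The same 4 hearts had the lowest Prdm16 and the highest Mib1. In replicates 3 and 4 of both mutant groups Prdm16 was 6.39 to 7.05 and Mib1 was 7.88 to 8.06, and in the other 8 hearts Prdm16 was 7.40 to 7.73 and Mib1 was 7.06 to 7.57. By these 2 genes the hearts fall into 2 clusters that the labels do not name, a split drawn after the values had been seen. With such clusters no correlation between Prdm16 and Mib1 over all 12 hearts is given. The larger cluster pools the controls with the rest of the mutants. Within its 8 hearts Pearson's r was 0.50 and Spearman's rho 0.38, as a description of arrays that share their normalization.

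**Figure D3:**
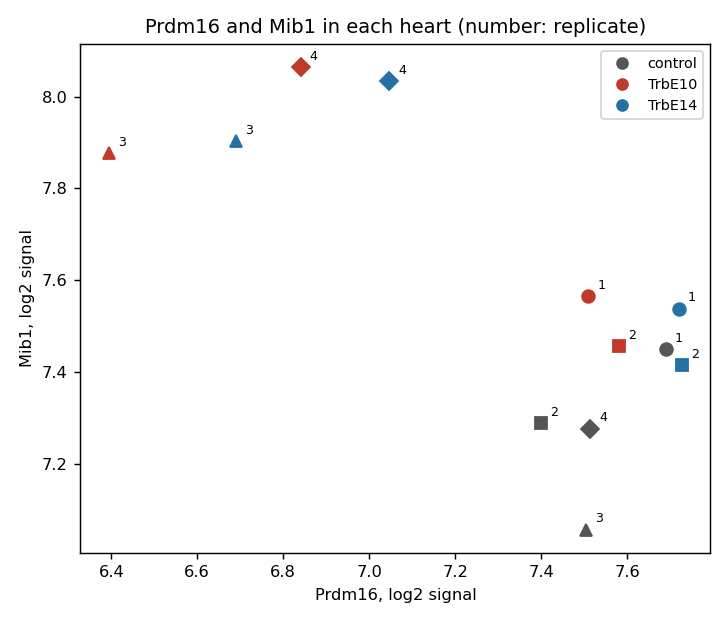
Log2 signal of Mib1 (vertical axis) against that of Prdm16 (horizontal axis) in the 12 hearts, with colours for groups and numbers for replicates. The 4 mutant hearts of replicates 3 and 4 stand at upper left, with Prdm16 at 7.05 or less and Mib1 at 7.88 or more, apart from the other 8.

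Lmna, Dtna and Vcl hold the structure of the muscle cell, at the nucleus, the membrane and the adhesion site. Lmna, which encodes lamins A and C, was 13.21, 13.32, 13.005 and 12.96 in control, 13.25, 13.15, 13.41 and 13.19 in TrbE10 and 13.16, 13.10, 13.27 and 13.34 in TrbE14. The groups overlapped, and the difference from control was 0.12 in TrbE10 (95% interval -0.10 to 0.35, limma adjusted p = 0.595) and 0.09 in TrbE14 (interval -0.13 to 0.32, limma adjusted p = 0.702). Dtna, which encodes α-dystrobrevin of the dystrophin complex, was 8.14, 8.02, 7.93 and 8.02 in control, 8.01, 7.68, 7.81 and 7.81 in TrbE10 and 7.84, 7.73, 8.07 and 8.04 in TrbE14. Of the TrbE10 hearts 3 were below all controls. Its difference was -0.20 in TrbE10 (interval -0.42 to 0.02, limma adjusted p = 0.361) and -0.11 in TrbE14 (interval -0.33 to 0.12, limma adjusted p = 0.656), the latter -0.04 without TrbE14 replicate 2.

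Vcl encodes vinculin, which couples integrin and cadherin adhesions to actin. It was 10.76, 10.76, 10.69 and 10.60 in control, 10.67, 10.70, 10.49 and 10.15 in TrbE10 and 10.64, 10.67, 10.75 and 10.62 in TrbE14. Replicates 3 and 4 of TrbE10 lay below the controls and the rest among them. The difference was -0.20 in TrbE10 (interval -0.45 to 0.05, limma adjusted p = 0.418) and -0.03 in TrbE14 (interval -0.28 to 0.22, limma adjusted p = 0.910). Without TrbE10 replicate 4 the difference in TrbE10 was -0.08. The second Vcl probe, the junction probe shown above, gave -0.13 and -0.07, but with another order of hearts. On it TrbE10 replicates 3 and 4, at 6.42 and 6.34, lay among the controls, and replicates 1 and 2, at 6.25 and 6.18, lay below them. Control replicate 1, at 6.73, was the highest control on this probe.

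Taz encodes tafazzin, the enzyme that remodels the mitochondrial lipid cardiolipin and is mutated in Barth syndrome. It was 10.69, 10.47, 10.78 and 10.63 in control, 10.55, 10.43, 10.48 and 10.58 in TrbE10 and 10.55, 10.53, 10.15 and 10.43 in TrbE14. Replicate 3 of TrbE14 was the lowest of the 12 hearts, and the groups overlapped. The difference was -0.13 in TrbE10 (interval -0.36 to 0.10, limma adjusted p = 0.571) and -0.23 in TrbE14 (interval -0.45 to 0.00, limma adjusted p = 0.371). Since the gene is X-linked and the groups differ in sex, the comparison was also made with sex in the model, which gave -0.12 and -0.21.

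Rbm20 encodes a splicing regulator of titin and other muscle transcripts. It was 8.91, 8.87, 9.03 and 8.89 in control, 8.98, 8.67, 8.37 and 8.85 in TrbE10 and 8.60, 8.96, 8.83 and 8.82 in TrbE14. In each mutant group 3 of 4 hearts were below all controls and 1 was among them. The difference was -0.20 in TrbE10 (interval -0.49 to 0.08, limma adjusted p = 0.464) and -0.12 in TrbE14 (interval -0.40 to 0.16, limma adjusted p = 0.696). Without TrbE10 replicate 3 the difference in TrbE10 was -0.09, and without TrbE14 replicate 1 that in TrbE14 was -0.05. The second probe, in another part of the gene, gave -0.14 and -0.09. On that probe 0 hearts of either mutant group were below all controls, and 1 TrbE10 heart was above them.

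Fkbp1a encodes FKBP12, which binds ryanodine receptors and type I receptors of the TGF-beta family, and its loss in mice leads to overgrown trabeculae. Its brightest probe read 15.10, 14.82, 15.14 and 15.23 in control, 15.20, 15.22, 15.04 and 14.97 in TrbE10 and 15.05, 15.06, 15.33 and 14.96 in TrbE14. The ranges of the 3 groups overlapped. The difference was 0.04 in TrbE10 (limma adjusted p = 0.903) and 0.03 in TrbE14 (limma adjusted p = 0.927), and the 95% intervals reached from 0.863-fold to 1.22-fold and from 0.858-fold to 1.21-fold of control. The other Fkbp1a probes gave -0.02 and -0.05 in TrbE10 and -0.07 and -0.12 in TrbE14, so the probes disagree in sign at this size.

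Between the mutants the 8 differences ran from 0.01 (Fkbp1a) to 0.21 (Prdm16) in size, with limma adjusted p between 0.939 and 0.996. The half-width of the 95% interval was 0.22 for the tightest gene and 0.64 for Prdm16. The absence of a call therefore does not show that the 2 deletion stages left these genes alike. Over the 8 genes the median log2 difference was -0.17 in TrbE10, -0.07 in TrbE14 and -0.04 between the mutants, beside -0.02, -0.03 and 0.00 over all genes tested. The median size of the difference was 0.20, 0.11 and 0.09, beside 0.15, 0.15 and 0.11.

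The proteins and transcripts that these genes work with, and other noncompaction genes outside the sarcomere, were listed as 118 partner genes, of which 112 passed the filter. The lists were chosen with earlier results of these data known. Of the 112, 3 were called higher and 1 lower in TrbE10 (3.57%), 2 higher and 0 lower in TrbE14 (1.79%) and 0 between the mutants, beside 2.15%, 0.76% and 0% of all genes. The 1 called lower was Nkx2-5, the deleted gene itself, whose fall follows from the design. Hes1, Mecom, Sntb1 and Hcn4 did not pass the filter, and Tamm41 and Mlip have no probe under those names. The median difference over the partners was -0.03 in TrbE10 and -0.01 in TrbE14.

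**Figure D4:**
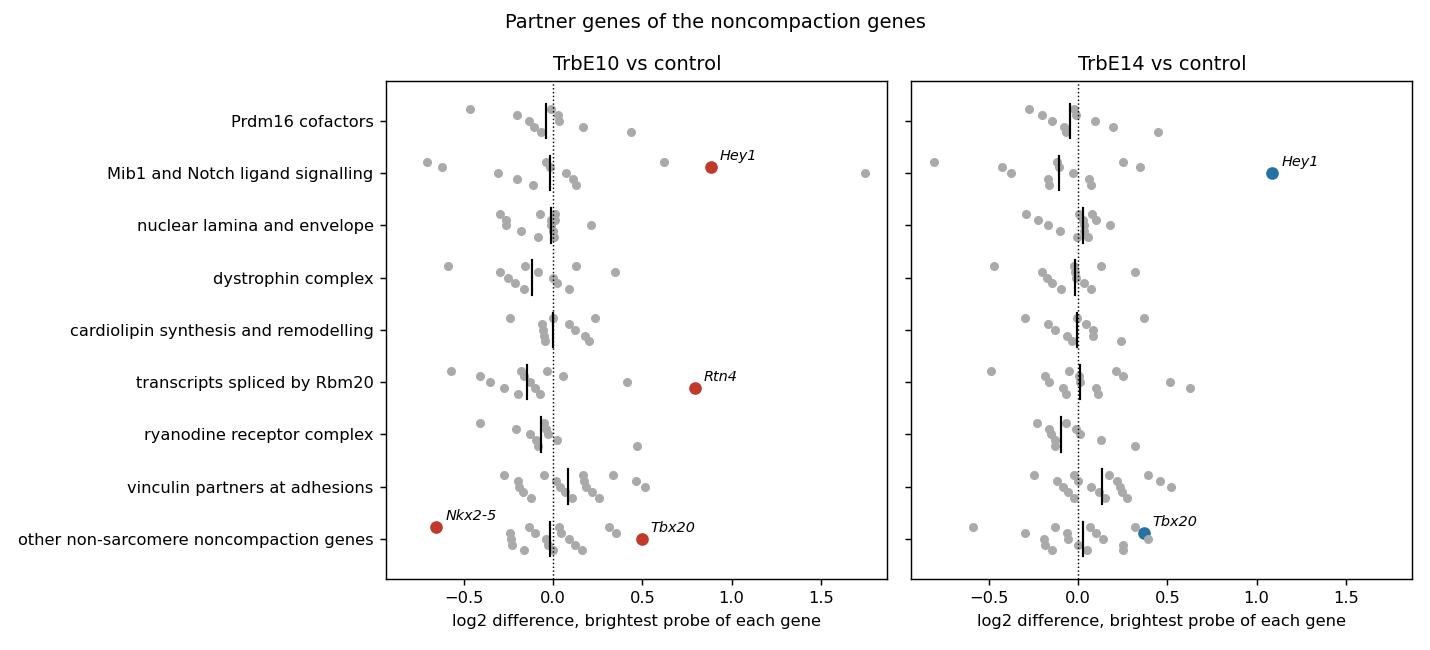
Log2 difference from control (horizontal axis) of the measured partner genes, 1 row for each list, in TrbE10 (left) and TrbE14 (right), with the median of each list as a black bar. Coloured and named genes had a probe with limma adjusted p under 0.05, grey ones did not, and vertical placement within a row has no meaning.

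Among 13 measured genes around Mib1 and Notch ligands, 1 was called in each mutant. Hey1, a transcriptional repressor induced by Notch and also present in endothelium, was 9.57, 9.69, 9.24 and 9.40 in control, 10.33, 10.13, 10.43 and 10.55 in TrbE10 and 10.49, 10.54, 10.53 and 10.70 in TrbE14. Every mutant heart was above every control heart. The difference was 0.88 in TrbE10 (SE 0.12, limma adjusted p = 0.00398) and 1.09 in TrbE14 (SE 0.12, limma adjusted p = 0.00161), and -0.20 between the mutants (limma adjusted p = 0.928). The 7 endothelial markers, 0 of which were called, had a summed linear signal of 30900 to 41100 in control, 37600 to 41900 in TrbE10 and 38000 to 46200 in TrbE14, and their part in Hey1 was not tested. The largest differences of the list that were not called, picked here after their values were seen, were the receptor Notch1 in TrbE10 (1.75, SE 0.68, limma adjusted p = 0.240) and the ligand Dll1 (-0.71 in TrbE10, limma adjusted p = 0.0892, and -0.81 in TrbE14, limma adjusted p = 0.0938). Mib2, the close relative of Mib1, differed by -0.04 and -0.03.

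Among 14 measured transcripts whose splicing Rbm20 controls, 1 was called. Rtn4, which encodes reticulon proteins of the endoplasmic reticulum, was 9.73, 9.66, 9.69 and 9.93 in control, 10.67, 10.30, 10.79 and 10.43 in TrbE10 and 10.34, 10.16, 10.70 and 10.32 in TrbE14, with no overlap between control and either mutant. It rose by 0.79 in TrbE10 (SE 0.14, limma adjusted p = 0.0180), and its difference in TrbE14 was 0.63 (SE 0.14, limma adjusted p = 0.0754). These probes read the amount of transcript at 1 place, and no splicing was measured. The list median was -0.15 in TrbE10 and 0.01 in TrbE14.

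Among 18 other measured genes tied to noncompaction outside the sarcomere, Nkx2-5 itself was called lower in TrbE10 and Tbx20 was called higher in both mutants. Tbx20 encodes a T-box factor of chamber myocardium and has 3 probes. One of them gave 6.21, 6.19, 6.19 and 6.23 in control, 7.33, 6.96, 7.71 and 7.76 in TrbE10 and 6.93, 7.25, 7.98 and 7.74 in TrbE14, a rise of 1.23 (SE 0.23, limma adjusted p = 0.0237) and 1.27 (SE 0.23, limma adjusted p = 0.0341). The dimmest probe rose by 2.02 in TrbE10 (limma adjusted p = 0.0237) and differed by 1.80 in TrbE14 (limma adjusted p = 0.0640). Its control values, 4.04 to 4.72, lie near the floor, since the second Dtna probe reached 4.63 without being above background. The size of that rise is therefore uncertain. The brightest probe differed by 0.50 and 0.37 (limma adjusted p = 0.121 and 0.311), so the 3 probes share their direction but not their size.

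The remaining lists held no called gene in either mutant, and the gene whose brightest probe had the largest difference is given for each. For the 10 cofactors of Prdm16 it was the coactivator Ppargc1a in TrbE10 (-0.47, limma adjusted p = 0.387, and -0.57 by its other probe) and the transcription factor Hand1 in TrbE14 (0.44, limma adjusted p = 0.593). For the 13 genes of the nuclear lamina and envelope it was Lmnb2, a B-type lamin, in TrbE10 (-0.30, limma adjusted p = 0.388) and Tmpo, which encodes lamina-associated polypeptides, in TrbE14 (-0.29, limma adjusted p = 0.191, but -0.13 and 0.02 by its other probes). In TrbE10 the 3 Tmpo probes gave -0.26, -0.29 and -0.25 (limma adjusted p = 0.164, 0.12 and 0.344). For the 12 genes of the dystrophin complex it was Dtnb, β-dystrobrevin, in both (-0.59 and -0.47, limma adjusted p = 0.0917 and 0.246). Like Dtna in direction, Dtnb was 5.23, 5.24, 5.26 and 4.97 in control and 5.03, 4.30, 4.50 and 4.49 in TrbE10. In TrbE14 all 4 hearts, at 4.76, 4.65, 4.96 and 4.44, were below all controls, as they were for the brightest Tmpo probe. Of all genes 10.1% did not overlap in that comparison. Dtnb and Hand1 are dim and lie near the floor, since the second Dtna probe, above background on 0 arrays, reached 4.63.

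For the 11 genes of cardiolipin synthesis and remodelling the largest difference was in Hadha, a subunit of the mitochondrial trifunctional protein, in TrbE10 (-0.24, limma adjusted p = 0.458) and in Cds2, a CDP-diacylglycerol synthase, in TrbE14 (0.37, limma adjusted p = 0.511, and 0.23 by its other probe). For the 10 genes of the ryanodine receptor complex it was Fkbp1b, the paralog of Fkbp1a that binds the cardiac receptor, in both (0.47 and 0.32, limma adjusted p = 0.158 and 0.388). Fkbp1b was 6.84, 7.29, 7.41 and 7.08 in control, 7.64, 7.48, 7.52 and 7.85 in TrbE10 and 7.17, 7.42, 7.74 and 7.55 in TrbE14. All TrbE10 hearts were above the controls for Fkbp1b, as they were for Zyx (below) and for 4.95% of all genes. For the 18 adhesion partners of vinculin it was Zyx, zyxin, in TrbE10 (0.51, limma adjusted p = 0.118) and Sorbs3, vinexin, in TrbE14 (0.52, limma adjusted p = 0.296). This list had the highest medians, 0.09 in TrbE10 and 0.13 in TrbE14.

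For each of the 8 genes the 2 named genes with the most alike pattern over the 12 arrays were sought among 12480. For Prdm16 they were Abtb2 and Cnga3 (Pearson's r 0.93 and 0.92) and for Mib1 they were Rod1, now named Ptbp3, and Tiparp (0.96 and 0.95). For both genes the values fall into the 2 clusters of hearts described above. For Lmna they were Fam46a, now Tent5a, and Maged1 (0.95 and 0.93), for Dtna Afap1l1 and Ap2a2 (0.89 and 0.86), for Taz Synj1 and Zfp874b (0.92 and 0.91), for Rbm20 Slc24a3 and Bbs9 (0.87 and 0.85), for Fkbp1a Sgsm3 and Trp53rk (0.85 and 0.83) and for Vcl Ccdc97 and Ppt2 (0.90 and 0.88). With 12 arrays and this many candidates the values are descriptions, and the arrays share their normalization.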

How the data were processed

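Left ventricular RNA of 12 mice was labelled with 1 dye and hybridised by the authors to Agilent arrays read with Feature Extraction 10.5. The deposited processed signal is an intensity on a linear scale, background-corrected within each array. The authors also deposited log2 values that they had quantile normalized and filtered, which served as an alternative; their columns had medians of 8.58 to 8.60. From the processed signals, log2 values were taken and quantile normalized here after control spots had been dropped. Outlier spots (93 to 131 an array) counted as missing, repeated spots were averaged per probe, and the filter asked for a signal well above background on 3 of 4 arrays of any group, which left 24593 of 55681 probes. No spot was saturated, and the 75th percentile of signal was 195 to 250. The number of arrays limits the precision.

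A model with 1 mean per group was fitted in limma 3.58.1 (R 4.3.3, data.table version 1.17.8; figures in Python 3.11.15 with matplotlib 3.10.9) and tested on simulated data. P-values were adjusted by Benjamini-Hochberg over all probes, and a gene was called when any probe was under 0.05. The members and partner lists were chosen with earlier results of these data known. Named partners were those called, or the largest difference in a list without calls, and Notch1, Dll1 and Mib2 were added after their values were seen. The labels number the mice but do not say that they came from separate litters. Alternatives were 75th percentile scaling, normexp (offset 50), other filters, 2-group fits, a replicate block, sex, SAM at a 5% false discovery rate and each array left out.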

Additional observations from a re-analysis of the deposited data

Results flagged for a closer look

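In the control group, replicate 1 stood apart from the others for the second Vcl probe, at 6.73 against 6.30 to 6.36 (gap over range 0.869). In TrbE10, replicate 1 stood apart for the second Rbm20 probe, at 8.03 against 7.39 to 7.43 (gap over range 0.940). In all, 2 of 36 combinations of probe and group exceeded Dixon's critical value, and chance gives about 1 in 20. The first probe of each gene was not marked out in these groups.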

How the results depend on the processing

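Of the 8 noncompaction genes, 0 were called under every alternative run, and the smallest limma adjusted p was 0.116 (Mib1, TrbE10 against control), where the range for that difference was 0.116 to 0.385. Mib1 stayed above 0 in both mutants, between 0.36 and 0.57 in TrbE10 and between 0.34 and 0.56 in TrbE14. Prdm16 stayed below 0, between -0.61 and -0.22 in TrbE10 and between -0.38 and -0.03 in TrbE14. Of 225 differences under alternatives other than leaving out an array, 218 kept their sign. However, the other filters, fits to only the groups compared, the replicate block and SAM left the differences at their main values. Signs under those alternatives could not change, so they do not speak to stability. All reversals came from the remaining alternatives. With 75th percentile scaling TrbE14 minus control became -0.0002051 for Lmna and -2.621e-05 for Fkbp1a, with normexp it became 0.003843 for Vcl and TrbE10 minus TrbE14 became -0.05002 for Lmna, and with the authors' values TrbE10 minus TrbE14 became -0.002888 for Mib1. As the mean of its probes Fkbp1a differed by -0.009282 in TrbE10 and -0.05604 in TrbE14. The cause of these turns was not tested.

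With an array left out, 271 of 288 differences kept their sign, though dropping an array of neither group compared cannot change a difference. Against control the ranges in TrbE10 and TrbE14 were 0.07 to 0.19 and 0.04 to 0.16 for Lmna, -0.26 to -0.15 and -0.16 to -0.04 for Dtna, -0.19 to -0.08 and -0.28 to -0.14 for Taz, -0.29 to -0.09 and -0.17 to -0.05 for Rbm20, and -0.27 to -0.08 and -0.07 to -0.01 for Vcl. The ranges that crossed 0 were -0.04634 to 0.08901 (TrbE10) and -0.05536 to 0.07999 (TrbE14) for Fkbp1a against control. Between the mutants they were -0.03826 to 0.08514 for Fkbp1a, -0.4166 to 0.01441 for Prdm16, -0.08964 to 0.1221 for Mib1, -0.02187 to 0.07073 for Lmna and -0.1732 to 0.02975 for Rbm20.

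With no filter 2 partner genes (in place of 4) were called in TrbE10 and 1 (in place of 2) in TrbE14, and with a 2-group fit or sex in the model 1 was called in TrbE14. With an array left out they were 1 to 6 in TrbE10 and 1 to 2 in TrbE14. Hey1 was called in both mutants under each of 21 alternatives. Rtn4 in TrbE10 lost its call without control replicate 3 or TrbE10 replicate 1 or 3. Tbx20 lost its call in TrbE10 without control replicate 1, 3 or 4 or TrbE10 replicate 1, 3 or 4, and in TrbE14 without any one control, TrbE10 replicate 1 or TrbE14 replicate 2, 3 or 4. It also lost its call with no filter in both mutants, and in TrbE14 with a 2-group fit or with sex in the model. Nkx2-5 in TrbE10 was called under 8 of 21 alternatives, and kept its call, with an array left out, only without TrbE10 replicate 2 or TrbE14 replicate 1.

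Deviations of same-numbered samples correlated at 0.374, 0.309 and 0.476 for replicates 1, 2 and 4 of the mutant groups and at -0.008 for replicate 3, and at -0.242 to 0.079 between control and mutant samples. Since not every pair was over 0.1 and the labels name nothing shared, the numbers were not taken to pair the samples. With a replicate block the 8 genes again gave 0 calls, Mib1 had limma adjusted p of 0.172 and 0.242, and 4, 2 and 0 partner genes were called in the 3 comparisons.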

Other observations

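Dbp, a clock output gene, varied widely within each group. It was 11.21, 13.94, 14.24 and 14.51 in control, 13.75, 11.81, 14.22 and 14.20 in TrbE10 and 13.42, 11.98, 14.20 and 14.35 in TrbE14. In each group the heart with the lowest Dbp had the highest Prdm16, at 7.69, 7.58 and 7.73. In TrbE14 the lead was slight, as replicate 1, with Dbp at 13.42, had Prdm16 at 7.72. Control replicates 3 and 4 had Dbp at 14.24 and 14.51, within or above the 14.20 to 14.35 of the mutant hearts with low Prdm16. Their Prdm16 was 7.505 and 7.51. Control replicate 2 had lower Dbp than those mutant hearts, at 13.94, and Prdm16 at 7.40. This was looked at after the values had been seen and was not tested.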
